A study of Mus musculus with 12 samples.

Results

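The genes described here are 10 members of the JAK-STAT pathway in mouse acute myeloid leukaemia cells: the kinase gene Jak2, the transcription factor genes Stat3, Stat5a, Stat5b and Stat6, the feedback inhibitor genes Socs1, Socs2, Socs3 and Cish, and the kinase gene Pim1. They were looked up by gene symbol, and all 10 were found among 24221 rows of a differential expression table deposited by the authors. The cells carry the MLL-AF9 fusion and are of the C57BL/6 strain. In the comparison described here their Riok2 alleles were flanked by loxP sites (Riok2fl/fl), and 3 samples that received ethanol (EtOH, the vehicle) were set against 3 that received hydroxytamoxifen (OHT), each for 72 h. OHT switches on recombinases of the tamoxifen-dependent Cre type, and the labels do not name the Cre line used. EtOH and OHT samples share the fusion and the loxP-flanked alleles, and they differ in the agent itself as well as in Riok2, which cannot be told apart. The series also holds 3 samples with DMSO and 3 with a RIOK2 inhibitor at 1 µM, not analysed here.

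Cytokine receptors of this pathway have no kinase activity of their own. Binding of a cytokine brings receptor-bound Janus kinases (JAKs) together, which phosphorylate the receptor and then STAT proteins, and paired STATs enter the nucleus and activate genes. Among those genes are their own inhibitors, the SOCS proteins and CIS (encoded by Cish), which bind receptors or JAKs through an SH2 domain and recruit a ubiquitin ligase through a SOCS box. PIM1 is a constitutively active serine/threonine kinase whose gene is a STAT target and whose product favours survival. In myeloid cells the receptors for IL-3, GM-CSF and G-CSF signal through JAK2 with STAT5 and STAT3, and interleukin 4 signals through STAT6.

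Many STAT proteins bind the palindrome TTCNNNGAA, and the start regions of Cish and Socs3 are shown because they were the ones among these genes in which it was found. RefSeq windows (GRCm38.p6, 250 bases before to 50 after a start site, strand of the gene) were at hand for 9 of the 10 genes, 12 windows in all. Capitals mark the match. As a pattern TTCNNNGAA reads alike on both strands, while the middle bases of a site need not.
Socs3, chr11:117969367-117969616, minus strand, the 250 bases before the start: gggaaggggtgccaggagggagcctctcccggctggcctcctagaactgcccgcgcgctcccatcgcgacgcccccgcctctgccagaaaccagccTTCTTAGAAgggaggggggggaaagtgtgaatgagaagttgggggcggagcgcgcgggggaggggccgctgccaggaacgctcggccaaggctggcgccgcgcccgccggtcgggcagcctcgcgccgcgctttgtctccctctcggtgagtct
Cish, chr9:107296654-107296683, plus strand, 30 bases across the start: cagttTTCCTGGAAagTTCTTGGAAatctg
The Socs3 match begins 154 bases before the RefSeq start. It lies within the annotated Socs3 gene all the same, in an intron of a non-coding GENCODE transcript that starts farther upstream, and the printed stretch also covers an exon of another non-coding Socs3 transcript. In Cish 2 matches begin at bases 1 and 12 counted from the RefSeq start, and they lie inside the first exon, 5′ untranslated, of a longer GENCODE transcript. Of all 32851 RefSeq windows of this length, 8.30% held the palindrome, and so did 9.55% of 27025 genes in at least 1 window. With a 4-base spacer in place of 3 the match was present in 6.95% of windows and in 0 of the windows of these genes. A match says only that the letters are there.

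The deposited values are a base mean, which is the average number of size-factor-normalised reads over libraries, and, for each gene, the log2 fold with a standard error (SE) and p-values. No column holds a value per sample, so the spread of a gene over samples is seen only through its SE. The targeted gene checked the direction: Riok2 stood at -3.60 ± 0.20 (log2 fold change ± SE, adjusted p = 7.81e-69) by the authors' deposited table, and all folds are read as OHT over EtOH on that ground. The sum of all base means was 2.03077e+07 normalised reads, and the relative depths of the 6 libraries, read from the lowest base means, ran from 0.697 to 1.88. As a check of the cell type, all 10 myeloid and leukaemia markers listed for it were present, with base means from 2103 to 52333, and Ptprc, the pan-leukocyte CD45 gene, stood at 9796. The fusion transcript itself was not analysed here. Of the 10 myeloid markers 6 rose and 2 fell in the authors' deposited table, beside 25.5% higher and 23.4% lower among all genes tested. The falls, named with their values known, were those of Mpo (-2.37 ± 0.23 SE) and Elane (-1.60 ± 0.17). The largest rises were those of Csf1r (2.96 ± 0.20) and Itgam (2.44 ± 0.12). The part of these marker changes in the values below was not tested. In bulk RNA a changed number of cells of a type and a changed amount of RNA per cell cannot be told apart.

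Of the 10 genes, 7 rose in OHT, 1 fell and 2 did not pass the authors' adjusted p-value threshold of 0.05. Among all 13814 genes tested by the authors, 25.5% were higher, 23.4% lower and 48.9% called in either direction. The 10 genes were chosen with earlier results of these data known, and whether they differ as a set was not tested. Their median SE was 0.16, beside 0.21 for all genes tested, and a smaller SE makes a call easier. All 10 genes were among those tested. Their median log2 fold change was 0.75, beside 0.05 for all genes tested. The genes that rose were Socs3, Socs1, Stat6, Jak2, Cish, Stat3 and Stat5b in order of fold change, and Pim1 was the one that fell. When the deposited folds were tested against an absolute log2 fold of 0.5 in place of 0, Socs3 and Stat6 remained called and the other 6 genes did not. By that test 1440 of the 13814 genes were higher and 921 lower.

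**Figure D1:**
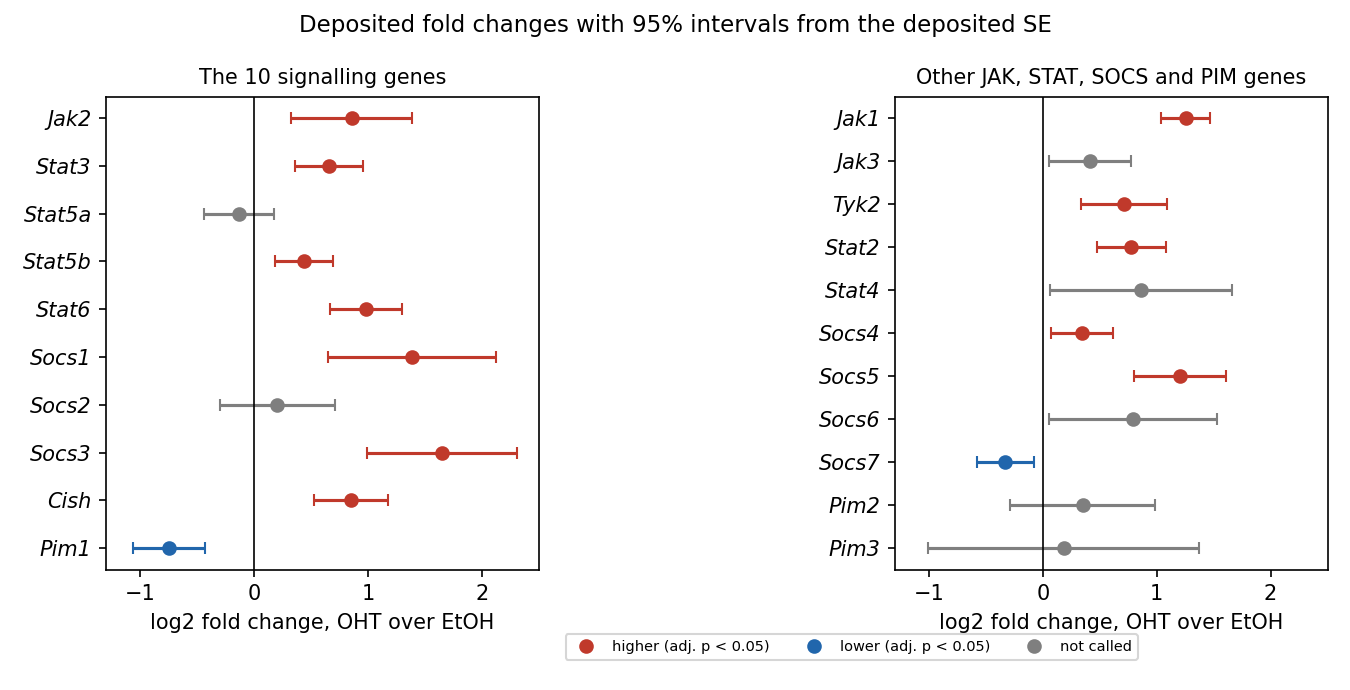
Log2 fold changes (x axis, OHT over EtOH) of the 10 signalling genes (left) and of 11 other genes of the same families (right) from the authors' deposited table. Points are fold changes and bars are 95% intervals from the deposited SE, red for higher, blue for lower and grey for not called at an adjusted p of 0.05. Pim1 and Socs7 lie below 0 with intervals that do not reach it, and the intervals of Stat5a, Socs2, Pim2 and Pim3 include 0.

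Jak2, on chromosome 19 (GRCm38, 29251828 to 29313080, plus strand), encodes the kinase bound to the receptors for GM-CSF, IL-3, erythropoietin and interferon gamma. It had a base mean of 2851 normalised reads in the authors' deposited table. Its log2 fold change there was 0.86 ± 0.27 (SE, adjusted p = 0.00454), or 1.81-fold with a 95% interval of 1.25 to 2.62. The base mean and the fold together place it near 2030 normalised reads in EtOH and 3672 in OHT. Such implied levels assume equal group sizes and carry the uncertainty of the fold. Folds were taken as shrunk towards 0, most where errors are wide, so the implied levels may lie too close together. The error of Jak2 was wide for its abundance. Its SE exceeded that of 98.4% of the 500 tested genes nearest in base mean, whose median SE was 0.15. Whether 1 library contributed to this rise was not tested, because values per library were not at hand.

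The STAT genes did not move alike. Stat6 (chromosome 10, 127642986 to 127660957, plus strand), which acts downstream of interleukins 4 and 13, showed the steepest rise of the 4 STAT genes. Its base mean was 4551 and its log2 fold change 0.98 ± 0.16 (SE, adjusted p = 1.36e-08) by the authors' deposited table, a 1.98-fold difference (95% interval 1.58 to 2.46) from about 3059 to 6043 normalised reads. Stat3, which mediates the response to interleukin 6 and G-CSF, rose by 0.65 ± 0.15 (adjusted p = 7.36e-05) in the authors' deposited table at a base mean of 3793. That is 1.57-fold (1.28 to 1.94), from about 2948 to 4639.

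Stat5a and Stat5b are neighbouring paralogs that respond to IL-3, GM-CSF and growth factors. Stat5b rose modestly, by 0.44 ± 0.13 (SE, adjusted p = 0.00232) at a base mean of 1745 in the authors' deposited table, a 1.35-fold difference (1.13 to 1.61). Stat5a was not called: its log2 fold change in the authors' deposited table was -0.13 ± 0.16 (adjusted p = 0.51) at a base mean of 852. The 95% interval of Stat5a, from -0.44 to 0.17 on the log2 scale, leaves room for a moderate fall or a slight rise. It ends just below that of Stat5b, which runs from 0.18 to 0.69. The difference between the paralogs was not tested, because both folds come from the same libraries and the table gives no covariance.

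All 3 genes lie in one stretch of chromosome 11 (GRCm38), with Stat5b at 100780731 to 100850724 on the minus strand, Stat5a at 100859351 to 100885169 on the plus strand and Stat3 at 100885098 to 100939540 on the minus strand. Stat5a and Stat5b start 8.63 kb apart and point away from each other. Stat5a and Stat3 meet tail to tail, and 72 bases of the annotation belong to both. Of the 50-base windows in Stat5a transcripts, 8.21% also occur in Stat5b transcripts, and 10.98% of those of Stat5b occur in Stat5a. The labels do not say how shared reads were counted, so the values of these paralogs are uncertain to that extent. The last 40 bases of Stat6 overlap Nab2 on the other strand, which had a log2 fold change of 2.96 (adjusted p = 9.97e-17) at a base mean of 147 in the authors' deposited table.

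Among the feedback inhibitors, Socs3 and Socs1 showed the largest folds of the 10 genes and are among the least abundant. SOCS3 acts mainly on receptors that use gp130 and on the G-CSF receptor. Socs3 (chromosome 11, 117966079 to 117970047, minus strand) averaged 279 normalised reads and rose by 1.65 ± 0.34 on the log2 scale (SE, adjusted p = 4.6e-06) by the authors' deposited table. This is 3.14-fold with a 95% interval of 1.99 to 4.95, from about 135 normalised reads in EtOH to 424 in OHT. Socs1 (chromosome 16, 10782240 to 10785536, minus strand) encodes a direct JAK inhibitor and restrains interferon signalling. At a base mean of 487 it rose by 1.39 ± 0.38 (adjusted p = 8.33e-04) in the authors' deposited table, 2.61-fold with an interval of 1.56 to 4.37, from about 270 to 705.

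Cish, at a base mean of 3290, was the most abundant of the feedback inhibitors. CIS competes with STAT5 for phosphorylated receptor sites, and Cish is a textbook STAT5 target. Cish (chromosome 9, 107296026 to 107302784, plus strand) rose by 0.85 ± 0.16 (SE, adjusted p = 1.58e-06) by the authors' deposited table, 1.80-fold (1.44 to 2.25), from about 2349 to 4231. Socs2, a regulator of growth hormone receptor signalling and likewise STAT5-induced, was not called. Its log2 fold change was 0.20 ± 0.26 (adjusted p = 0.54) at a base mean of 450 in the authors' deposited table, with an interval from -0.30 to 0.71. An interval of that width covers the folds of Stat5b and Stat3.

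The errors of Socs1, Socs2 and Socs3 were wide for their abundance. Among the 500 tested genes nearest in base mean, the SE of Socs1 exceeded 97.4%, that of Socs3 92.0% and that of Socs2 86.6%. Cish at 66.0%, Stat6 at 65.8%, Pim1 at 57.8%, Stat3 at 55.4%, Stat5a at 37.6% and Stat5b at 20.4% lay nearer the middle. The order of folds among the 7 genes that rose is settled only in part. The interval of Socs3 lies above those of Stat3 and Stat5b, while that of Socs1 overlaps those of Socs3, Stat6, Jak2, Cish, Stat3 and, at its lower end, Stat5b.

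**Figure D2:**
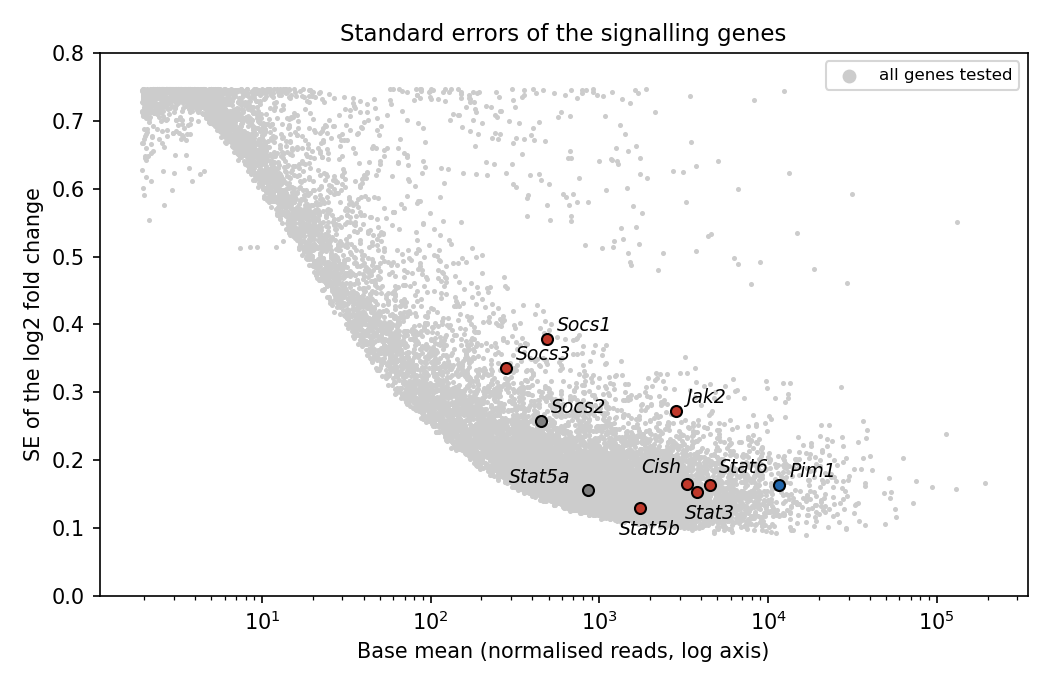
Standard error of the log2 fold change (y axis) against base mean (x axis, normalised reads, log scale) for all 13814 genes tested (grey) and the 10 signalling genes (red higher, blue lower, grey with black rim not called) in the authors' deposited table. Socs1, Socs3 and Jak2 stand above most genes of like abundance.

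Pim1 ran the other way. It was the most abundant of the 10 genes, with a base mean of 11681 in the authors' deposited table, and lies on chromosome 17 (29490753 to 29496112, plus strand). There it fell by 0.75 ± 0.16 on the log2 scale (SE, adjusted p = 1.85e-05), to 59.4% of its EtOH level with a 95% interval of 47.6 to 74.1%. The implied levels were 14653 normalised reads in EtOH and 8708 in OHT. Even after the fall Pim1 stood above the others in both groups. Its first 1173 bases overlap the antisense gene Gm26885, and Cish overlaps the annotated antisense gene Gm17041 and the pseudogene Gm17040. Reads of such partners cannot be told apart without strand information, and these 3 genes are not analysed here.

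**Figure D3:**
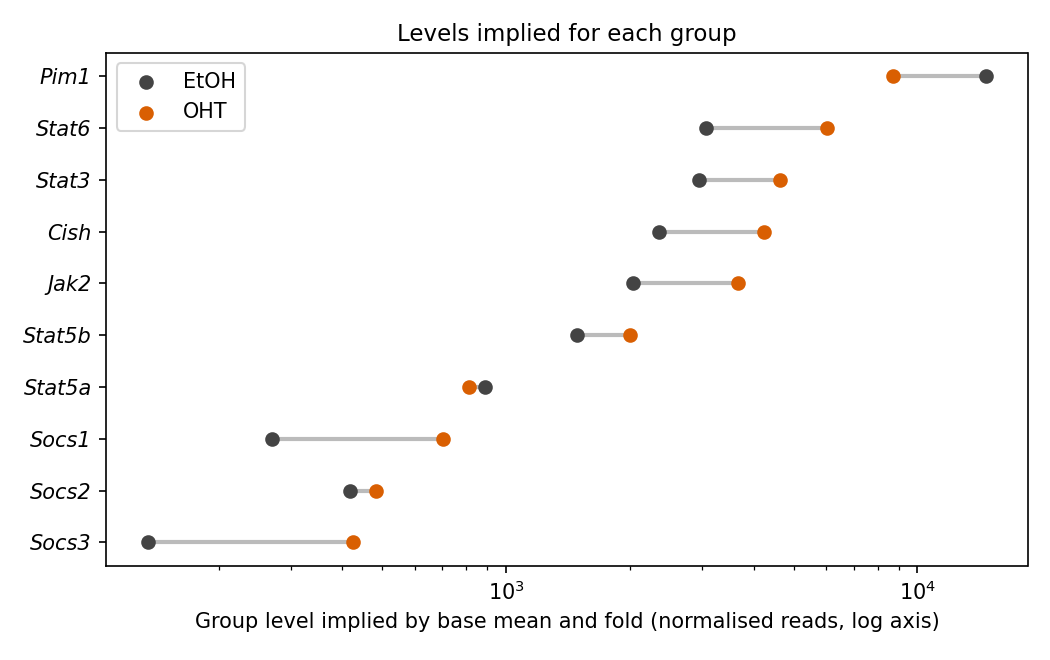
Group levels (x axis, normalised reads, log scale) implied by the base mean and the fold change of each of the 10 genes, EtOH in dark grey and OHT in orange, ordered by base mean. Pim1 moves left from 14653 to 8708, and Socs3 moves right from 135 to 424.

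Per kilobase of annotated exon (GENCODE M21), the order of levels was Pim1 at 3474 normalised reads per kb, Stat6 at 1034, Jak2 at 567, Cish at 513, Stat3 at 398, Stat5b at 315, Socs1 at 168, Stat5a at 120, Socs3 at 96.6 and Socs2 at 47.2. These are base means over both groups, and no error of a level is given in the authors' deposited table. The gap from Pim1 to Stat6 and that from Stat5b to Socs1 are wider than the fold of either gene between groups, except that Socs1 itself differed 2.61-fold. Jak2 and Cish lie close together and their order should not be read. The order among Socs1, Stat5a and Socs3 depends on the group, because Socs1 and Socs3 rose and Stat5a was not called. It should not be read either.

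**Figure D4:**
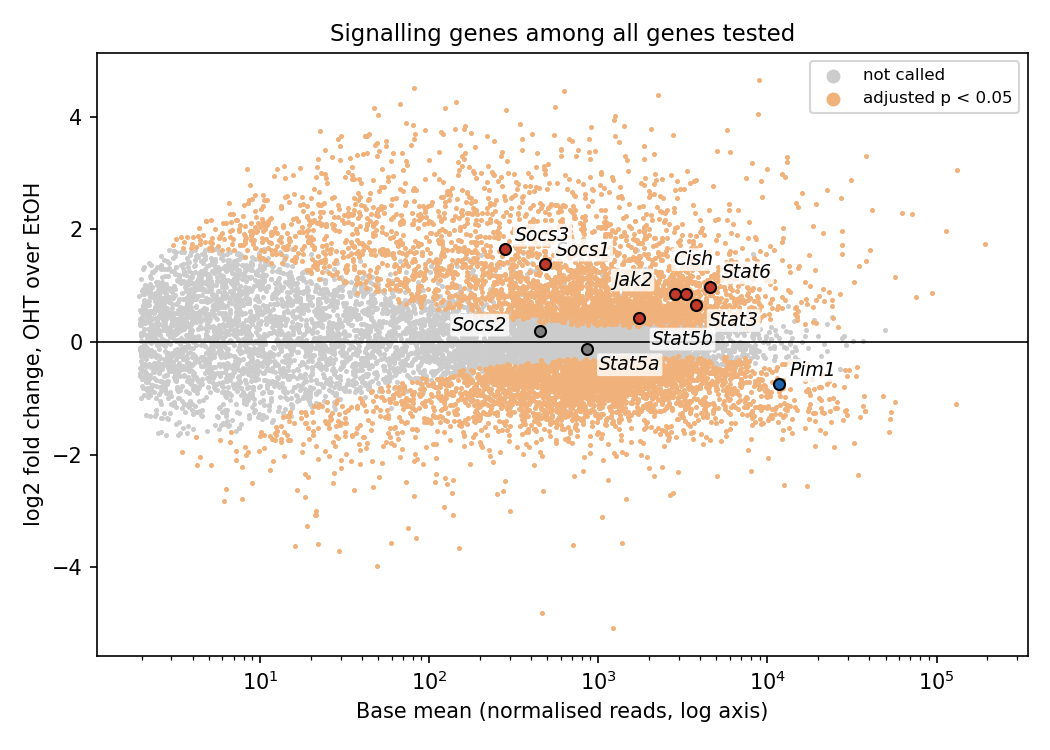
Log2 fold change (y axis, OHT over EtOH) against base mean (x axis, normalised reads, log scale) for all genes tested, orange where the adjusted p is under 0.05 and grey otherwise, from the authors' deposited table. The 10 signalling genes are marked with black rims, red for higher, blue for lower and grey for not called, and all lie within the cloud of other genes.

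The rest of the same families held rises and 1 fall. Of 11 other JAK, STAT, SOCS and PIM genes, all tested, 5 rose and 1 fell in the authors' deposited table, with a median log2 fold change of 0.71. The share called in either direction, 54.5%, lay near the 48.9% of all genes tested. Of the 11 folds 10 were above 0, as were 7252 of the 13814 folds of all genes tested. Among all genes tested 25.5% were called higher. The median of these relatives lay close to the 0.75 of the 10 signalling genes. Among the kinases Jak1, which serves interferon and gp130 receptors, rose by 1.25 ± 0.11 (SE, adjusted p = 8.99e-28) and Tyk2 by 0.71 ± 0.19 (adjusted p = 8.36e-04) in the authors' deposited table. Jak3, the partner of the common gamma chain, had 0.41 ± 0.19 there (adjusted p = 0.052). Stat2, which acts in the response to type I interferon, rose by 0.78 ± 0.16 in the authors' deposited table, and Stat4, at a base mean of 145, had 0.86 ± 0.41 (adjusted p = 0.068). Socs5 (1.20 ± 0.21) and Socs4 (0.34 ± 0.14, adjusted p = 0.032) rose in the authors' deposited table. Socs7 fell there by 0.33 ± 0.13 (adjusted p = 0.021), while Socs6 had 0.79 ± 0.38 (adjusted p = 0.071). Neither Pim2 (0.35 ± 0.33) nor Pim3 (0.18 ± 0.61) was called there, so the fall of Pim1 was the one call among the PIM genes. Whether Pim1 differed from its paralogs was not tested.

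Among receptors upstream of the pathway rises outnumbered falls. Of 31 receptor chains that signal through JAKs, 27 were tested, 17 rose and 3 fell in the authors' deposited table, with a median of 0.70, while 25.5% of all genes tested were higher and 23.4% lower. The common beta chain of the IL-3, GM-CSF and IL-5 receptors, Csf2rb, was the most abundant at a base mean of 12425 and rose by 1.85 ± 0.21 (SE, adjusted p = 9.5e-18) by the authors' deposited table. Il6st, which encodes gp130, rose by 2.62 ± 0.51, Il7r by 2.38 ± 0.75, Csf2rb2 by 2.35 ± 0.60 and Il10ra by 2.12 ± 0.28 there. Their errors were wide for their abundance. Among the 500 tested genes nearest in base mean, the SE of Il6st exceeded 98.8%, Il7r 99.8%, Csf2rb2 99.4% and Il10ra 93.0%. With genes of an SE above 0.5 left out, 14 chains were higher and 2 lower. Csf2rb and Csf2rb2 are near-identical copies and therefore uncertain. Falls, chosen for naming once their values were known, were those of Il2ra (-1.25 ± 0.52), Il15ra (-0.92 ± 0.16) and Il11ra1 (-0.47 ± 0.19) in the authors' deposited table. Those of Il2ra (adjusted p = 0.0348) and Il11ra1 (adjusted p = 0.0350) do not pass an adjusted p of 0.01. Of the 31 chains, 5 had base means under 5.

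Most ligands of these receptors were at or near 0. Of 18 cytokine genes, 4 had a base mean of 0 (Il2, Il10, Ifng and Epo). A further 7 had no adjusted p-value and 7 were tested. Of those 7 tested, 0 were called in either direction in the authors' deposited table, beside 48.9% of all genes tested. Among the 7, 1 gene, Osm, had an unadjusted p under 0.05. Osm, the oncostatin M gene, was the most abundant at a base mean of 761, and its fold there was 1.34 ± 0.62 on the log2 scale (SE, adjusted p = 0.059). Il6, at a base mean of 372, had 0.39 ± 0.56 and Lif, at 308, had 1.16 ± 0.73 in the authors' deposited table, neither called, and both are named because they were the next most abundant. The median SE of the tested ligands was 0.62, beside 0.21 for all genes tested.

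Other negative regulators moved in both directions. Of 13 listed, all tested, 7 rose and 1 fell, with a median of 0.73 in the authors' deposited table, and 61.5% were called in either direction, beside 48.9% of all genes tested. The phosphatase SHP-1 gene Ptpn6 (0.77 ± 0.16 SE), the phosphatase CD45 gene Ptprc (1.10 ± 0.12), the ubiquitin ligase gene Cbl (1.72 ± 0.32), the STAT3 inhibitor gene Pias3 (1.38 ± 0.18) and Usp18, which restrains interferon receptors (1.81 ± 0.57), rose there. The 1 that fell, named after its value was seen, was Pias2 at -0.33 ± 0.11 in the authors' deposited table.

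Textbook target genes of the STATs were counted as well, although each of them answers to other factors too. Of 15 STAT5 targets 5 rose and 2 fell in the authors' deposited table (median 0.39). The share called, 46.7%, was near the 48.9% of all genes tested. The cyclin gene Ccnd1 rose by 3.11 ± 0.43 (SE), Bcl6, a gene that STAT5 represses, by 2.66 ± 0.37 and the anti-apoptotic Mcl1 by 1.13 ± 0.15 there, while Myc fell by 1.63 ± 0.11 and Il2ra by 1.25 ± 0.52. Of 19 STAT3 targets 16 were tested, and 10 rose and 2 fell (median 0.78) in the authors' deposited table, so that 75% were called. Fos (3.57 ± 0.21), the siderophore-binding Lcn2 (2.7 ± 0.23), Bcl6 (2.66 ± 0.37), which is in both lists, and the acute phase gene Saa3 (1.81 ± 0.53) led the rises, and beside Myc the other fall, picked out with its value known, was that of Vegfa at -0.91 ± 0.23 in the authors' deposited table.

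Of 14 STAT6 targets 5 were tested, and 4 rose: the mannose receptor gene Mrc1 (3.40 ± 0.64 SE), Klf4 (2.35 ± 0.18), Pparg (1.20 ± 0.21) and the interleukin 4 receptor gene Il4ra (1.07 ± 0.19) in the authors' deposited table. Among all genes tested 25.5% were higher. A further 7 STAT6 targets, with Arg1, Retnla and Chil3 among them, were given a fold without any p-value and could not be called. They were not all low in reads, with base means of 86218 for Chil3 and 3699 for Arg1. Of all 24221 genes, 51 had a fold without a p-value. The SE of Mrc1 exceeded that of 99.8% of the 500 tested genes nearest in base mean. Whether 1 library contributed to these values was not tested. In all, 9 genes stood in more than 1 of these lists.

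**Figure D5:**
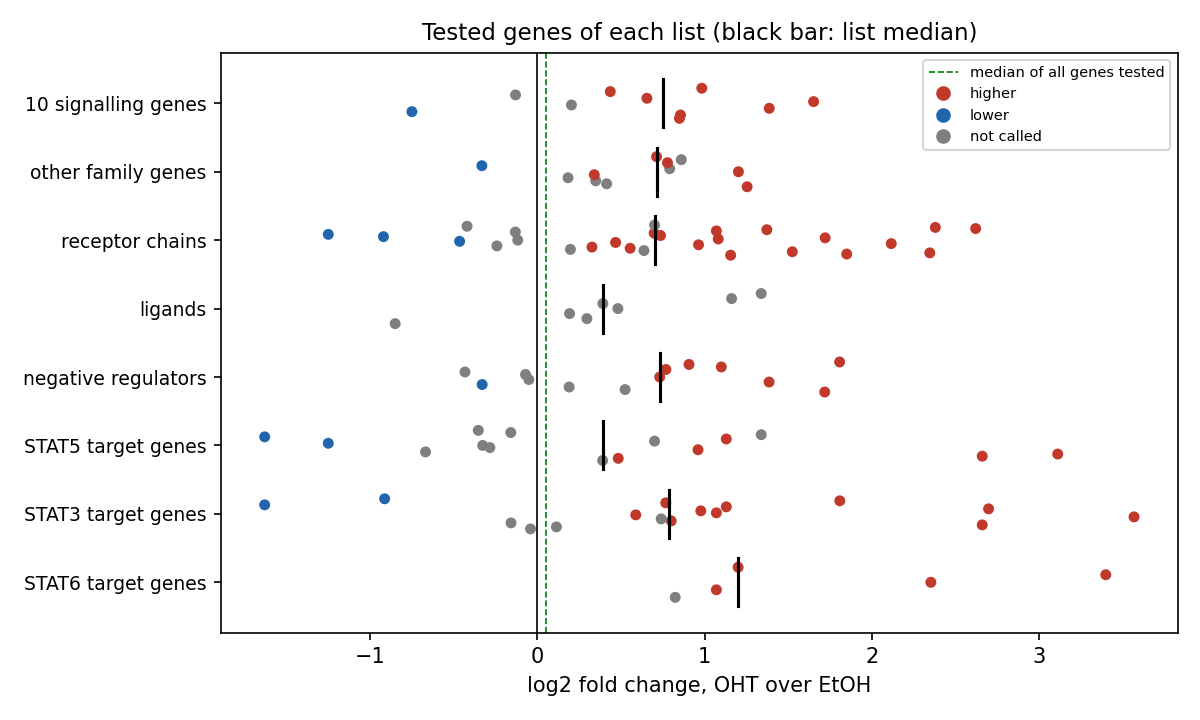
Log2 fold changes (x axis, OHT over EtOH) of the tested genes of the 10 signalling genes and of the 7 family, pathway and target lists in the authors' deposited table, 1 point per gene, red for higher, blue for lower and grey for not called, with vertical offsets for legibility. Black bars are list medians, from 0.39 for ligands and STAT5 targets to 1.20 for the 5 STAT6 targets tested, and the dashed line is the median of all genes tested, 0.05.

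Markers of other cell types were counted because several carry JAK-dependent receptors. Of 10 mast cell, basophil and eosinophil genes, 5 were tested and 0 called in the authors' deposited table, where 1 of them, Ms4a2, had an unadjusted p under 0.05. Another 4 had a fold without a p-value: Mcpt8 (base mean 3144), Prg2 (2880), Epx (379) and Ear1 (188). The base means of the 10 summed to 24536, led by Cpa3 at 13266. The tested ones had a median SE of 0.74 and a median log2 fold change of 0.85. The SE of Cpa3 exceeded that of 99.4% of the 500 tested genes nearest in base mean. Whether 1 library contributed to these values was not tested. Of 10 erythroid and megakaryocyte genes 8 were tested and 1, Vwf, rose, by 3.82 ± 0.20 (SE) at a base mean of 908 in the authors' deposited table, with Itga2b the most abundant tested at 1053 and both globin genes listed at 0. The 9 lymphoid genes summed to a base mean of 101, with Lck leading at 72.9 and Cd3e, Cd8a and Ms4a1 at 0. Of the 3 tested 2 rose and 1 fell. In the stromal and endothelial list 5 of 10 were tested, 2 of which were called, both higher, and Pecam1 led at 1579. Among all genes tested 25.5% were higher and 23.4% lower. The part of such other cell types in the folds of the 10 signalling genes was not tested.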

How the data were processed

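RNA was sequenced from 12 samples in 4 groups of 3, and 1 table comparing OHT with EtOH in Riok2fl/fl cells was analysed. The submitters' processing notes name Trimmomatic 0.38.0 and STAR 2.7.2b, besides HTSeq 0.9.1, DESeq, DESeq2 and build mm10, without their roles. Neither annotation nor strand setting was given in the sources used here. Per gene, the authors deposited the base mean (signal, in normalised reads). They also deposited the log2 fold and its SE on the log2 scale. A Wald score and raw and adjusted p-values complete what the authors deposited. Its columns carry numbers for names, so each was tested on its values: score against fold over SE (largest deviation 7.56e-08) and adjusted p against Benjamini-Hochberg over 13814 genes (2.33e-07). Since no SE passes 0.747, folds were taken as shrunk towards 0, most where errors are wide.

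No test of samples was made here: every call is the authors' DESeq2 test at an adjusted p under 0.05. Relative depth was read from the lowest base means: 6 single-read steps accounted, within 1e-08, for the base means of all 2173 genes that lie between 0 and 0.5. The libraries were not assigned to groups. Replicates are not described as separate cultures in the labels, and the p-values may then reflect technical spread alone. Intervals are 95% from the SE. The 10 genes, the gene lists and the tests were chosen with earlier results of these data known. Named are the 10 genes, Riok2, the rest of their families and, per list, the 4 largest called folds and the most abundant tested gene. Positions and exon lengths came from GENCODE M21 (GRCm38, the assembly behind mm10) and start windows from RefSeq (GRCm38.p6). The recomputed adjustments were tested on simulated data. Python 3.11.15, pandas 2.3.3 and scipy 1.17.1 were used. Protein sequences were not used here, and a few list genes and 1 list of STAT targets are not reported here.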

Additional observations from a re-analysis of the deposited data

How the results depend on the processing

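No paired analysis was possible because the deposited table is a finished comparison without columns per sample. For the same reason leaving out a replicate and a new DESeq2 fit were not run. The alternatives therefore use the deposited folds and errors again, and they cannot show what 1 library contributes. Riok2 and all 10 signalling genes kept their direction and their side of the threshold at an adjusted p under 0.01, with adjustment over every gene with a p-value, with folds centred on the median of all genes tested (a shift of 0.05 on the log2 scale) and, chosen after seeing the data, with genes of an SE above 0.5 left out. When the test asked for an absolute log2 fold above 0.5, 1440 of the 13814 genes tested were higher and 921 lower. Of the 10 genes 2, Socs3 and Stat6, then remained higher and 0 were lower, while Jak2, Stat3, Stat5b, Socs1, Cish and Pim1 were no longer called, with adjusted p-values from 0.099 for Socs1 to 1 for Stat5b. That follows from the construction of the test, which asks for more than a difference from 0. Folds taken as shrunk towards 0 may also make such calls harder, most where errors are wide. Under it 2 of the 11 other family genes and 10 of the 27 receptor chains tested were higher. At an adjusted p under 0.01 the falls of Socs7, Il2ra and Il11ra1 were not called, which left 1 fall among the receptor chains and 1 among the STAT5 targets. The rise of Socs4 (adjusted p = 0.032) was not called there either. Rises then numbered 4 among the other family genes, 16 among the receptor chains and 9 among the STAT3 targets. Among the 9 genes with a start window the palindrome with a 3-base spacer was found in 2 and that with a 4-base spacer in 0.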

Other observations

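The SOCS proteins recruit a ubiquitin ligase, and its subunits went against the direction of most SOCS genes in value. Of 4 subunit genes, a list chosen after the file was seen, 0 rose and 2 fell in the authors' deposited table: the RING protein gene Rnf7 at -0.76 ± 0.18 (SE, adjusted p = 8.08e-05) and Tceb1, which encodes elongin C, at -0.74 ± 0.18 (adjusted p = 1.18e-04). Tceb2, the elongin B gene, had -0.24 ± 0.15 and Cul5 had -0.21 ± 0.17 there, both not called. Among all genes tested 23.4% were lower.

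Non-receptor tyrosine kinases that act beside the JAKs in myeloid cells, also listed after the file was seen, were counted as well. Of 5 tested, 4 rose in the authors' deposited table, beside 25.5% of all genes tested: Fgr by 2.92 ± 0.19 (SE), Src by 2.30 ± 0.35, Syk by 1.15 ± 0.15 and Lyn by 1.02 ± 0.15. Btk had 0.13 ± 0.13 (adjusted p = 0.40) at a base mean of 4396. Src had a base mean of 94.5. Fgr, Src and Lyn are paralogs of one family. The folds of all 4 kinase genes that rose exceeded that of Jak2 (0.86 ± 0.27) in value, a difference that was not tested.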
